A study of Mus musculus with 2 samples.

Results

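The regions described here were DNase-seq peaks of mouse embryonic retina that lay mostly in repetitive DNA. They were the autosomal peaks of replicate 1 that a replicate 2 peak overlapped and in which more than 50% of the bases are written in lower case, the mark for repeats, in the soft-masked mm10 sequence. Of 117817 shared autosomal peaks, 4336 met this rule, which is 3.68%, and the other 113481 shared peaks served for comparison. The series holds 1 group, retina of healthy embryos at 14.5 days of the strain labelled B6NCrl, with male and female tissue pooled. It has 2 biological replicates, which share a donor label but not a biosample label, and replicate 1 was also sequenced on an instrument model that replicate 2 was not. Each library has its own list of 150 bp peaks, 161073 on the autosomes in replicate 1 and 213658 in replicate 2. The files hold no read numbers, so the depth behind a peak is unknown. With 1 group no contrast between conditions exists, peaks are not replicates, and shares are given with exact Clopper-Pearson 95% intervals that cover counting error only.

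DNase I cuts DNA where nucleosomes are displaced, which in a tissue marks promoters, enhancers and insulators in use. Interspersed repeats are copies of mobile elements, most of them silenced by DNA methylation and repressive chromatin, and some carry letters that transcription factors bind. In mouse, short elements of the B2 class have carried copies of the motif of CTCF, the insulator protein that anchors chromatin loops, to many places in the genome. Short elements derived from tRNA carry the B box, an internal promoter element of RNA polymerase III. Because copies resemble each other, a short read from a young copy can often not be placed at 1 site. No repeat annotation was used here, so no member is assigned to a repeat family.

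The first 5 sequences come from the 5 largest groups of members with similar sequence, and are named by the closest protein-coding gene, measured to its transcription start site (TSS). All sequences are mm10 plus strand, read 5′ to 3′. In 4 of them capitals mark a 10-base word, CAGAAGAGGG on one strand or its reverse complement CCCTCTTCTG, that recurs below, and the member near Snrnp70 is shown without capitals because it did not hold the word.
Gstm7, chr3:107918136-107918285: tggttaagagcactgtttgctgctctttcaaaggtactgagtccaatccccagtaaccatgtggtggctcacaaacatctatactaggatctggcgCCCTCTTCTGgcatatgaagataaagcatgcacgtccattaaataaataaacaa
Kifc1, chr17:33897216-33897365: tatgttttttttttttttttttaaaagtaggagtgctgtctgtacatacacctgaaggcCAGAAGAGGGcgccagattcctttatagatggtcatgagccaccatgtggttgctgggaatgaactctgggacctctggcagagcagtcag
Snrnp70, chr7:45396096-45396245: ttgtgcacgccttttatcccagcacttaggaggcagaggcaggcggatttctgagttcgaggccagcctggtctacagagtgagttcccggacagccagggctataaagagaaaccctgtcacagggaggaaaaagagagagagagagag
Parp16, chr9:65201496-65201645: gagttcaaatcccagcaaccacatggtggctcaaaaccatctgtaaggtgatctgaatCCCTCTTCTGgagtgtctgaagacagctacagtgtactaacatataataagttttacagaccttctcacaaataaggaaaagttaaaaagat
Bcdin3d, chr15:99469196-99469345: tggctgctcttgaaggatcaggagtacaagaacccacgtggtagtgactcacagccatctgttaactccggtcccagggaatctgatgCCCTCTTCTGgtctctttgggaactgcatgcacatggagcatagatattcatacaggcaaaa
These members had 134, 135, 150, 104 and 122 lower-case bases in the order printed. They were picked as the highest-ranked member of each group, or for Kifc1 the next in rank. Their high percentiles, 72.3 to 86.9 in replicate 1 and 71.4 to 94.4 in replicate 2, therefore follow from the choice. In the order printed, the whole groups had median ranks of 40.5, 45.4, 53.2, 37.8 and 57.8 in replicate 1. The member near Gstm7 had a column 7 value of 74 in replicate 1 and 91 in replicate 2, and the member near Parp16 had 77 and 119. The latter is a promoter member, 270 bp from the TSS of the small nuclear RNA gene Rnu5g and 6218 bp from that of Parp16.

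The next 5 sequences show members chosen for their rank without regard to similarity groups. They are 2 of the strongest promoter members outside untranslated regions and 3 of the strongest members more than 10 kb from any TSS. Capitals mark an NFY match (CCAATNAG, on the minus strand) at Rdm1, an NRF1 match (GCGCATGC) at the member nearest Gpx5, a CTCF match at the member nearest Ssr2, and a CTCF and an SP/KLF match (GGGCGG) at the member nearest Ankef1. The Zfp827 promoter member held none of the motifs searched.
Zfp827, chr8:79028136-79028285: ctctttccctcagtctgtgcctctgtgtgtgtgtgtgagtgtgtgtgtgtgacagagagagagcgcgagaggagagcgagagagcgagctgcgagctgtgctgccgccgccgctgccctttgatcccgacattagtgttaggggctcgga
Rdm1, chr11:101627656-101627805: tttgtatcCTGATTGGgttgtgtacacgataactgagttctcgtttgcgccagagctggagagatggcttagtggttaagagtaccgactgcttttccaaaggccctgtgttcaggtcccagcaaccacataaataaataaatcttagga
Gpx5, chr13:21259736-21259885: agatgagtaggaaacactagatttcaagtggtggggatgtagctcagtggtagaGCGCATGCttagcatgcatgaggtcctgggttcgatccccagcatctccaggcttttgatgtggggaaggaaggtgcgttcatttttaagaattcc
Ssr2, chr3:88592016-88592165: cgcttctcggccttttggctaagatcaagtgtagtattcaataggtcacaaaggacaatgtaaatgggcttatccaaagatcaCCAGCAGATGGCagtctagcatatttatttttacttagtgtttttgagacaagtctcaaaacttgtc
Ankef1, chr2:136485896-136486045: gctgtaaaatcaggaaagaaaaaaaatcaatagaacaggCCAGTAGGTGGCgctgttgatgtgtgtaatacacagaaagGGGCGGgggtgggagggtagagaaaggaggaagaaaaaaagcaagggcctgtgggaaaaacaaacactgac
The member nearest Gpx5 overlapped a RefSeq tRNA gene and also held a match to the B box, which is left in lower case. In all, 6 repeat peaks (0.138%, 95% interval 0.0508 to 0.301%) and 287 other shared peaks (0.253%, 0.225 to 0.284%) overlapped one of 386 autosomal tRNA genes.

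Repeat peaks were scarce relative to the genome. Of all consecutive 150 bp windows of the autosomes, 27.8% had more than 50% lower-case bases, 7.56 times the share among shared peaks. Counted on replicate 1 coordinates the share was 3.68% (3.57 to 3.79%), and on replicate 2 coordinates it was 3.78% (3.67 to 3.89%), a mean of 3.73 ± 0.0716% (SD, n = 2). Both counts use the peaks shared by the 2 libraries, so this SD is not a spread between independent libraries. All autosomal peaks of each library alone gave 4.67% in replicate 1 and 4.82% in replicate 2. Among peaks that the other library did not overlap the share was higher, 7.35% (7.11 to 7.60%) of 43256 peaks of replicate 1 and 6.04% (5.89 to 6.19%) of 98310 peaks of replicate 2. Members that overlapped each other were few, so the 4336 peaks stood at 4062 separate loci.

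Most members were only partly repetitive. Their median share of lower-case bases was 68.7% (quartiles 58.0 and 82.0%), against 90% (67.3 and 100%) in repeat windows of the genome. All 150 bases were lower case in 289 members, 6.67% (5.94 to 7.45%), against 38.7% (38.4 to 39.0%) of repeat windows. The longest lower-case run that a member touched had a median length of 96 bp, against 232 bp in repeat windows. The members just inside the rule, 80 peaks with 76 lower-case bases, had a median rank of 43.0 in replicate 1 and 55.7 in replicate 2, and the 108 peaks just outside, with 75, had 45.4 and 54.6.

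Column 7 of the peak lists is a whole number, at most 144 in replicate 1 and 150 in replicate 2. Its meaning is not stated, so it was used as a percentile rank among the autosomal peaks of its library. Repeat peaks ranked lower than the other shared peaks in both libraries. Their median rank was 45.4 (quartiles 29.1 and 62.8) in replicate 1, against 62.8 (40.5 and 82.1) for the other shared peaks. In replicate 2 it was 52.7 (33.3 and 67), against 71.4 (54.0 and 86.4). The raw values had medians of 27 against 38.0 in replicate 1 and 50 against 70 in replicate 2. The 2 distributions overlapped widely. Only 21 members, 0.484% (0.300 to 0.739%), stood in the top 10% of both libraries, against 13.1% (12.9 to 13.3%) of the other shared peaks and 12.7% of all shared peaks. Values of the 2 libraries correlated across members with a Spearman coefficient of 0.826 (n = 4336), against 0.932 across the other shared peaks (n = 113481), a description across peaks that share their libraries.

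**Figure D1:**
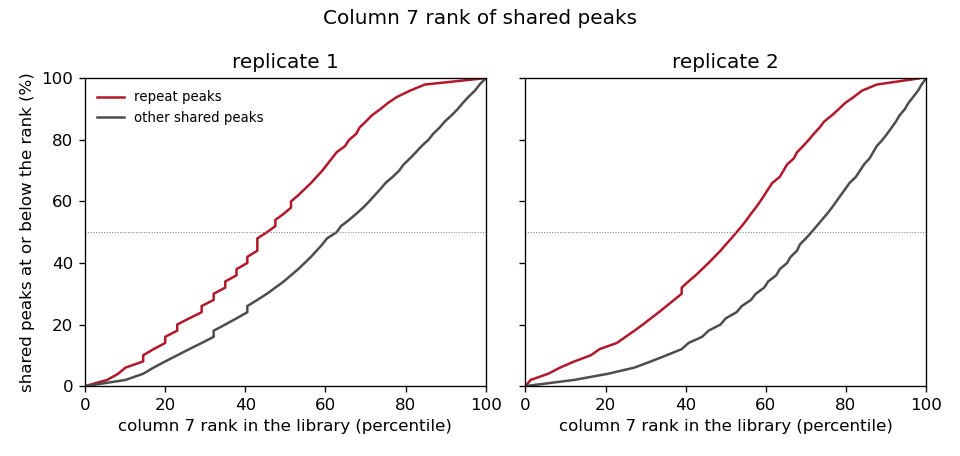
Cumulative share of shared peaks (vertical axis, percent) at or below each column 7 rank (horizontal axis, percentile among the autosomal peaks of the library), for repeat peaks in red and the other shared peaks in grey, in replicate 1 (left) and replicate 2 (right). The red curves cross the dotted 50% line at ranks 45.4 and 52.7, left of the grey curves at 62.8 and 71.4.

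The share of repeat peaks was highest among the lowest-ranked peaks of both libraries and lowest among the highest-ranked. In replicate 1, 13.6% (13.1 to 14.2%) of the lowest decile of autosomal peaks lay mostly in repeats, 5.01% (4.70 to 5.34%) of the fifth decile and 0.180% (0.120 to 0.258%) of the highest decile. In replicate 2 the same shares were 10.9% (10.4 to 11.3%), 5.24% (4.94 to 5.55%) and 0.316% (0.245 to 0.402%). The highest decile held 29 such peaks in replicate 1 and 67 in replicate 2.

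**Figure D2:**
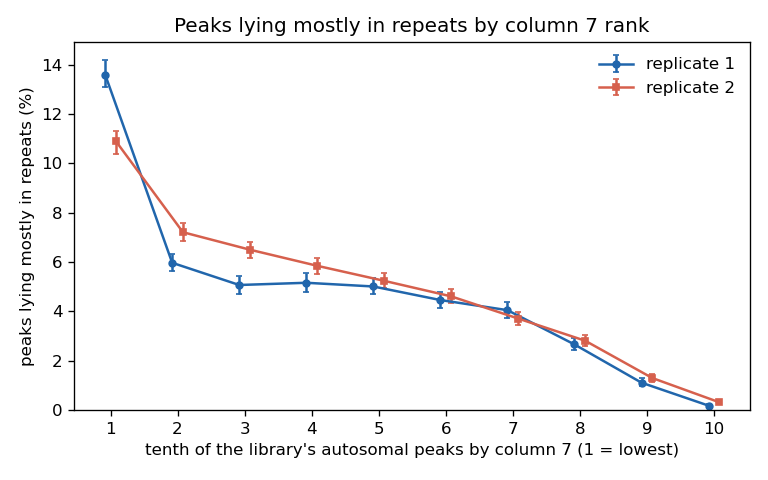
Share of autosomal peaks lying mostly in repeats (vertical axis, percent, with exact 95% intervals) in each decile of the peaks of replicate 1 (circles) and replicate 2 (squares), ordered from the lowest to the highest column 7 values. The share starts at 13.6% and 10.9% in the lowest decile and ends at 0.180% and 0.316% in the highest.

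Before the rule on sharing, repeat peaks were found again less often than other peaks. A replicate 2 peak overlapped 57.7% (56.6 to 58.8%) of the 7516 repeat peaks of replicate 1 and 73.9% (73.7 to 74.1%) of its 153557 other peaks. In the other direction a replicate 1 peak overlapped 42.4% (41.4 to 43.3%) of 10298 repeat peaks of replicate 2 and 54.6% (54.4 to 54.8%) of 203360 other peaks. At matched rank this order held in only some deciles. In replicate 1 it held in the lowest, the ninth and the highest, and was reversed in those between the lowest and the ninth. In the lowest decile of replicate 1, 10.6% (9.32 to 12.1%) of repeat peaks and 12.4% (11.8 to 13%) of other peaks were overlapped. In the seventh decile the shares were 96.3% (94.5 to 97.6%) and 91.4% (91.0 to 91.8%), and in the highest decile 93.1% (77.2 to 99.2%) and 98.5% (98.3 to 98.7%). In replicate 2, repeat peaks were overlapped more often than other peaks in every decile except the highest, for example 52.8% (49.8 to 55.9%) against 43.7% (43.0 to 44.4%) in the fifth.

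Repeat peaks lay less often at promoters than other shared peaks, and more often than repeats of the genome at large. A promoter peak here overlaps the 1000 bp on either side of an annotated TSS of any gene type, and the remaining peaks were classed as exon, intron or intergenic in that order. Promoters took 773 members, 17.8% (16.7 to 19.0%), against 29.8% (29.5 to 30%) of the other shared peaks, 29.3% of all shared peaks and 3.85% (3.72 to 3.98%) of repeat windows. Introns took 1766 members, 40.7% (39.3 to 42.2%), against 33.4% (33.2 to 33.7%) of the other shared peaks. Intergenic sequence took 1664, 38.4% (36.9 to 39.8%), against 31.8% (31.5 to 32.1%), and exons outside promoters took 133, 3.07% (2.57 to 3.62%), against 4.98% (4.86 to 5.11%). Coding sequence was touched by 28 members, 0.646% (0.430 to 0.932%), against 6.77% (6.63 to 6.92%) of the other shared peaks.

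**Figure D3:**
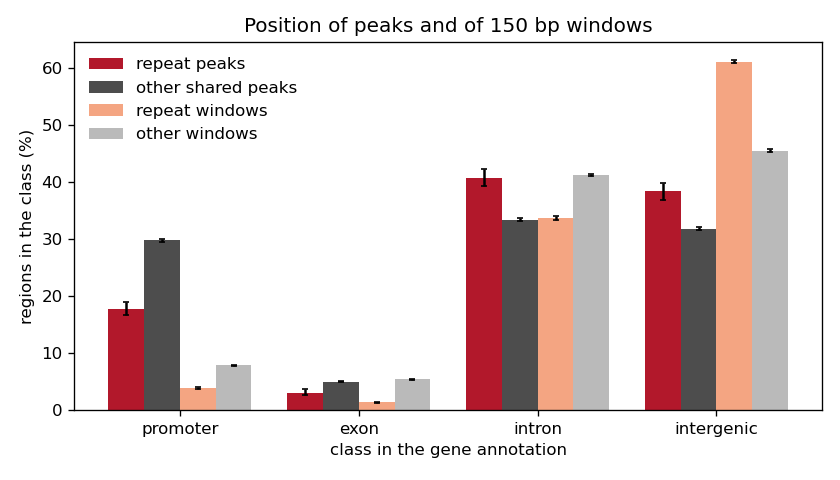
Share of regions (vertical axis, percent, with exact 95% intervals) that are promoter, exon, intron or intergenic, for repeat peaks, the other shared peaks, and 150 bp windows of the autosomes with more than 50% and with up to 50% lower-case bases. Repeat peaks are at promoters in 17.8% of cases, below the other shared peaks (29.8%) and above repeat windows (3.85%).

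The difference in promoter share lay mostly close to the TSS. The median distance from the peak centre to the nearest TSS was 5724 bp (quartiles 1794 and 15710) for repeat peaks and 5644 bp (682 and 21631) for the other shared peaks. Only 80 members, 1.85% (1.47 to 2.29%), were centred within 100 bp of a TSS, against 12.8% (12.6 to 13%) of the other shared peaks. At the far end, 36.2% (34.7 to 37.6%) of members and 40.1% (39.8 to 40.4%) of the other shared peaks were over 10 kb away from every TSS. Measured to protein-coding genes alone the median distances were 9893 bp for repeat peaks and 11854 bp for the other shared peaks. In repeat windows the median to any TSS was 17938 bp.

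At matched rank the promoter shares were closer. In the second and the third deciles of replicate 1, 15.2% and 16.3% of shared repeat peaks were at promoters, against 13.3% and 15.1% of the other shared peaks. In the eighth decile the shares were 20% and 28.3%. In the highest decile 27 members remained, of which 66.7% were at promoters, against 75.3% of 15857 other shared peaks. Promoter members were also the class with the widest gap in rank, their median ranks in replicates 1 and 2 being 51.4 and 56.3, against 80 and 83.5 for other promoter peaks. Intron members had 45.4 and 52.7, against 54.8 and 67.

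The TSS nearest to a promoter member belonged to a protein-coding gene in 565 of 773 cases, 73.1% (69.8 to 76.2%), against 82.5% (82.1 to 83.0%) for the other promoter peaks. Genes of small nuclear RNAs, the RNA parts of the spliceosome, were nearest to 23 promoter members, 2.98% (1.90 to 4.43%), against 0.394% (0.330 to 0.466%). Processed pseudogenes, which are inserted copies of spliced transcripts, were nearest to 43, 5.56% (4.05 to 7.42%), against 1.37% (1.25 to 1.5%). Genes of small nucleolar RNAs were nearest to 15, 1.94% (1.09 to 3.18%), against 0.305% (0.249 to 0.370%). Long intergenic RNA genes had close shares, 6.47% (4.84 to 8.44%) against 5.47% (5.23 to 5.72%).

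Members differed from other peaks in how often their letters recur in the assembly. All words of 36 bases on both strands were counted over the assembled chromosomes. In 2231 members, 51.5% (50 to 53.0%), each 36-base word occurred once, against 96.5% (96.4 to 96.6%) of the other shared peaks and 94.9% of all shared peaks. Repeat windows of the genome reached 22.6% (22.3 to 22.9%). Under 50% of the words were found once in 4.27% (3.68 to 4.91%) of members, against 39.7% (39.4 to 40%) of repeat windows. With words of 50 bases, 77.7% (76.5 to 79.0%) of members and 98.0% (97.9 to 98.1%) of the other shared peaks were made of words found once. No source used here states the read length or how reads with several matches were handled, and the part of read placement in these shares was not tested.

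Base composition also set members apart. Their GC content averaged 48.3%, against 53.6% in the other shared peaks and 41.6% in repeat windows, and the median ratio of observed to expected CpG was 0.154 against 0.321 and 0.121. A short tandem repeat, in which at least 27 of 30 consecutive bases equal the base 1 to 6 positions before, lay in 369 members, 8.51% (7.70 to 9.38%). It lay in 0.511% (0.470 to 0.554%) of the other shared peaks, 0.805% of all shared peaks and 10.1% (9.90 to 10.3%) of repeat windows. In 17.3% (16.2 to 18.5%) of members column 7 was written with a decimal point in the replicate 1 list, against 6.15% (6.01 to 6.29%) of the other shared peaks, for a reason that is not stated.

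One word of 10 bases recurred in a large share of members. CAGAAGAGGG, on either strand, was the word found in the most members, counted over all words of that length. It stood in 1480 members, 34.1% (32.7 to 35.6%), against 867 of the other shared peaks, 0.764% (0.714 to 0.816%), 1.99% of all shared peaks and 1.63% (1.55 to 1.72%) of repeat windows. The word was chosen on these members, so its count among them is a description. On replicate 2 coordinates the share was 34.4%. The centre of the word stood a median of 18 bp from the peak centre, within 20 bp in 802 members and 40 bp or more away in 222. In the other shared peaks with the word the median was 19 bp.

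CTCF binds a motif close to this word. The CTCF consensus, searched in full, was present in 4 of the 1480 members with the word, 0.270% (0.0737 to 0.691%), but with 1 mismatch allowed it was present in 1231, 83.2% (81.2 to 85.0%). Over all members, 211 held the full consensus, 4.87% (4.24 to 5.55%), close to the 5.59% (5.46 to 5.73%) of the other shared peaks and to 5.57% of all shared peaks. In repeat windows it was 0.0405% (0.0284 to 0.0560%). With 1 mismatch allowed the shares were 45.1% (43.6 to 46.6%) of members, 16.7% (16.5 to 16.9%) of the other shared peaks and 1.78% (1.70 to 1.87%) of repeat windows. Of the 1955 members with such a match, 1231 held the word. These matches are letters in the sequence, and no binding of CTCF was measured.

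Members with the word were found more often in introns and less often at promoters than members without it. Introns held 47.8% (45.2 to 50.4%) of the 1480 members with the word, against 37.1% (35.3 to 38.9%) of the 2856 without, and promoters held 12.3% (10.7 to 14.1%) against 20.7% (19.2 to 22.2%). The 867 other shared peaks with the word had shares close to those of members with it, 45.2% (41.9 to 48.6%) in introns and 11.8% (9.70 to 14.1%) at promoters. Median ranks were 49.6 with the word and 43.0 without it in replicate 1, and 52.7 in both sets in replicate 2. The word was present in 12.3% of shared repeat peaks in the lowest decile of replicate 1, in 41.3% in the eighth decile and in 3.70% of the 27 in the highest decile. Tandem repeats were rarer with the word, 1.76% (1.15 to 2.56%) against 12% (10.8 to 13.3%).

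Most copies of the word in the genome lay outside peaks. The autosomes held 94447 copies, 85691 of them in masked sequence, and 2178 of the masked copies, 2.54% (2.44 to 2.65%), lay in a shared peak. Of the 8756 copies in unmasked sequence 129 did, 1.47% (1.23 to 1.75%). The share went with how often the surrounding letters recur. Of the 20775 masked copies whose 150 bp surroundings had only 36-base words found once, 7.51% (7.16 to 7.88%) lay in a shared peak. Of 39043 masked copies with no more than 50% of the words found once, 0.0666% (0.0435 to 0.0976%) did. Of the masked copies with all words found once, those within 1 kb of a TSS lay in a shared peak in 11.8% (10.1 to 13.7%) of 1320 cases, and those more than 10 kb away in 5.63% (5.20 to 6.09%) of 10506.

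**Figure D4:**
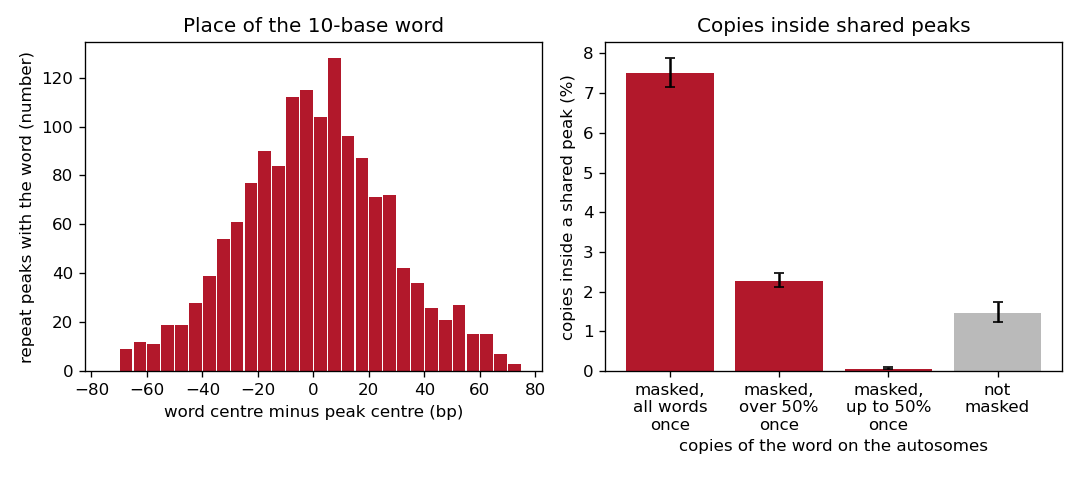
Left, number of repeat peaks with the 10-base word (vertical axis) by the distance of the word's centre from the peak centre (horizontal axis, bp, steps of 5 bp). Right, share of autosomal copies of the word inside a shared peak (vertical axis, percent, with exact 95% intervals), for masked copies by the share of surrounding 36-base words found once and for copies in unmasked sequence. The distances pile up near 0, and the share is 7.51% where all words are found once and 0.0666% where no more than 50% are.

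The letters beside the word went with the share of copies in peaks, also where every surrounding word was found once. The following shares are all over those 20775 copies, with N for any base. Each of the 12 bases on either side of the word was counted, and only some places are given here. Of the copies that read CCAGAAGAGGG, 10.8% lay in a shared peak (1444 of 13381), against 2.35% for ACAGAAGAGGG, 1.44% for TCAGAAGAGGG and 1.08% for GCAGAAGAGGG. After the word, CAGAAGAGGGC had 11.6% (1268 of 10935), against 4.23% for CAGAAGAGGGA, 2.82% for CAGAAGAGGGT and 1.25% for CAGAAGAGGGG. At the third base after the word, CAGAAGAGGGNNC had 14.3% and CAGAAGAGGGNNG 10.4%, against 4.99% for CAGAAGAGGGNNT, the most common form with 61.4% of the copies. With C at all 3 places, CCAGAAGAGGGCNC lay in a shared peak in 448 of 1981 cases, 22.6% (20.8 to 24.5%). Copies with C on neither side did so in 31 of 4302, 0.721% (0.490 to 1.02%). The C directly before and the C directly after the word are both letters of the CTCF consensus. These were not the only places where the shares differed. At position -4, counting back from the word, T had 13.5% (192 of 1417) and C 11.1%, against 7.08% for A and 5.04% for G. At position -12 the shares ran from 4.21% for C to 10.9% for A. The share with C at all 3 places is over the same copies as the single places, so it is a description.

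Other motifs separated members from the other shared peaks in both directions. The B box (GTTCNANNC), the internal promoter element of RNA polymerase III, stood in 760 members, 17.5% (16.4 to 18.7%), against 4.26% (4.14 to 4.38%) of the other shared peaks, 4.75% of all shared peaks and 9.96% (9.77 to 10.2%) of repeat windows. CAGCACC, part of the motif of the neuronal gene repressor REST, stood in 7.66% (6.88 to 8.49%), against 4.35% (4.23 to 4.47%) and 3.27% (3.16 to 3.39%). The SP/KLF box GGGCGG of GC-rich promoters stood in 3.60% (3.06 to 4.20%), against 15.1% (14.9 to 15.3%) and 1.20% (1.13 to 1.28%). The E-box CAGCTG, bound by proneural bHLH factors, stood in 7.68% (6.90 to 8.51%), against 15% (14.8 to 15.2%) and 3.59% (3.47 to 3.71%). For the homeodomain core TAATTA the shares were 3.69% (3.15 to 4.29%), 5.09% (4.96 to 5.22%) and 4.15% (4.02 to 4.29%), and for the OTX/CRX core TAATCC 5.70% (5.03 to 6.43%), 5.06% (4.94 to 5.19%) and 7.36% (7.18 to 7.53%). Among the motifs searched, the CTCF consensus had the highest ratio of repeat peaks to repeat windows, 120. That ratio rests on 36 of 88932 repeat windows with a match. The consensus also had the highest ratio of the other shared peaks to the windows outside the repeat set, 66.5. Its lead was therefore not particular to repeat peaks. The motifs differ in length, which these ratios do not take into account.

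**Figure D5:**
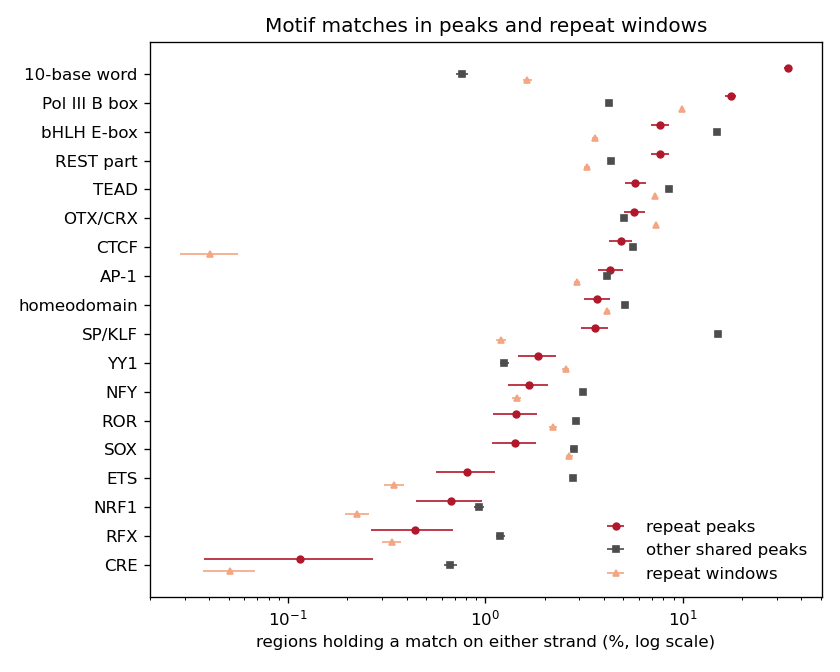
Share of regions with a match on either strand (horizontal axis, percent on a log scale, with exact 95% intervals) for the 10-base word and for the motifs searched that matched at least 1 repeat peak, ordered by their share in repeat peaks. The word is at 34.1% in repeat peaks and 0.764% in the other shared peaks, and the CTCF consensus at 4.87% in repeat peaks and 0.0405% in repeat windows.

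Counted per match in the genome, every motif in this comparison lay less often in a shared peak when masked. For the CTCF consensus 573 of 2058 masked matches lay in a shared peak, 27.8% (25.9 to 29.8%), against 58.6% (57.6 to 59.6%) of 10187 unmasked matches. For NRF1, an activator of housekeeping promoters, it was 0.336% (0.247 to 0.446%) against 7.57% (7.14 to 8.02%). For the B box it was 0.180% (0.168 to 0.191%) against 0.802% (0.779 to 0.826%), for the E-box 0.432% (0.403 to 0.463%) against 2.35% (2.31 to 2.38%), for the homeodomain core 0.157% (0.143 to 0.171%) against 0.919% (0.896 to 0.943%), and for YY1 (AAGATGGC) 0.119% (0.101 to 0.139%) against 1.5% (1.42 to 1.58%).

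Some members shared longer stretches. Groups of members that aligned to a leading member over at least 100 bp with at least 80% identity took in 1298 members, 29.9%, in 234 groups, of which 128 held 2 members. Overlapping members of 1 locus also align with each other, and 43 of these groups, with 86 members, lay at a single locus. The other 191 groups, with 1212 members (28.0%), spanned 2 or more loci. The largest group, led in rank by the member near Gstm7, held 284 members at 258 loci, of which 171 had the word and 172 the B box. They comprised 58 promoter, 127 intron and 96 intergenic members and had median ranks of 40.5 and 47.2 in replicates 1 and 2. The groups of 64, 46 and 42 members, shown by Kifc1, Parp16 and Bcdin3d, had the word in 43, 32 and 32 members. The group of 53 members, shown by Snrnp70, differed. Only 1 of its members had the word, 35 had the B box and 29 the OTX/CRX core TAATCC, and 34 lay at promoters. A smaller group of 14 members at 8 loci had median ranks of 12.2 and 9.65 and neither the word nor the B box.

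The highest ranks among members belonged to promoters. The member with the highest lower rank of both libraries lay 50 bp from the TSS of Ldb1 (chr19:46039596-46039745), the gene of a cofactor of LIM-homeodomain factors, with column 7 values of 130 in replicate 1 and 135 in replicate 2. Wdr77, which encodes a partner of the arginine methyltransferase PRMT5, had 124 and 132 (chr3:105959276-105959425). Ankrd17 had 123 and 128, and Fbxl20, an F-box protein gene, 113 and 130. These 4 members were between 52.0% and 54.7% lower case and overlapped an untranslated region, so no sequence is shown. The Zfp827 member had 108 and 127 with 66.7% lower case, and Rdm1 had 98.0 and 125 with 68.7%. The list of 10 was completed by a pair of overlapping peaks at Slc6a6, the taurine transporter gene, a peak at Mgrn1, and 1 at Cdh2, which encodes N-cadherin. All 10 were promoter peaks within 226 bp of a TSS.

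More than 10 kb from any TSS the strongest members reached lower values. The member nearest Gpx5 had 91.0 in replicate 1 and 116 in replicate 2, the one nearest Ssr2 had 90 and 111, and the one nearest Ankef1 had 79.0 and 108. The others were an intergenic member nearest Klrb1c with 83.0 and 103, and one nearest Cd83 with 82.0 and 122, 258506 bp from that gene's TSS. The nearest gene need not be the gene a distal peak acts on.

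Taking each set of lists together, repeat peaks were fewer near genes of cell types, retinal and other, than among shared peaks at large. The lists within each set differed. A peak counted for whichever protein-coding gene had the closest TSS. For 158 autosomal genes on 8 lists of retinal progenitor, neurogenic and retinal neuron or glia genes, 50 of 2665 shared peaks lay mostly in repeats, 1.88% (1.40 to 2.47%), against 3.68% of all shared peaks. For 149 genes on 8 lists of other cell types, such as pigment epithelium, lens, blood, vessel, liver and muscle, it was 34 of 1384, 2.46% (1.71 to 3.42%). That interval also lay below 3.68% and overlapped the interval of the retinal lists. Within that set, microglia and immune, erythroid and hepatocyte genes had 7.14, 7.89 and 4.76%. Pigment epithelium, lens, endothelial and muscle genes had 2.96, 2.17, 2.40 and 2.08%. Each of their intervals included 3.68%. The lowest share of all lists belonged to mesenchyme genes, the list with the most shared peaks in that set, with 1 of 368, 0.272%. Amacrine and horizontal cell genes had 3 of 503, 0.596% (0.123 to 1.73%), and retinal progenitor genes 9 of 622, 1.45% (0.664 to 2.73%). Only these 3 lists had an interval below 3.68%. The retinal list of phototransduction genes had 5 of 106, 4.72% (1.55 to 10.7%), an interval that includes 3.68%. At the other end, chemosensory receptor genes had 39 of 454, 8.59% (6.18 to 11.6%), and Zfp genes, a family of zinc finger factors, 110 of 2127, 5.17% (4.27 to 6.20%). Over the 25 lists the median share was 2.79%, and lists of under 10 such peaks have wide intervals.

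Within the retinal lists some members lay close to well-known genes. Their sequences are shown for 2 genes, with the word or its reverse complement or a CTCF match in capitals where present.
Cntn2, chr1:132524056-132524205: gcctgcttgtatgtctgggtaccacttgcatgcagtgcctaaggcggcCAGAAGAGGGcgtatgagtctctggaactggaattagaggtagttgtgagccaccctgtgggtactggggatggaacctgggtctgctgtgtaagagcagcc
Prkca, chr11:108010616-108010765: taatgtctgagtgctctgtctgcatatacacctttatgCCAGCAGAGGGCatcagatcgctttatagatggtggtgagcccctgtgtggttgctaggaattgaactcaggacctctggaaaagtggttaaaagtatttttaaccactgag
The promoter member 738 bp from the TSS of Cntn2, a cell adhesion gene of axons, had 40 in replicate 1 and 66.0 in replicate 2 and held the word. The intron member at Prkca, a kinase gene known as a marker of rod bipolar cells, had 48.0 and 65 and a CTCF match. Both lay above the middle of their libraries, with ranks of 64.9 and 71.6 in replicate 1 and 68.5 and 67.8 in replicate 2. All members had medians of 45.4 and 52.7. Members named for a list were its highest-ranked, up to 2 per list, so their high ranks follow from the choice. All repeat peaks of the retinal lists had a median rank of 54.8, below the 61.6 of the other shared peaks of those lists.

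Other members of the retinal lists, picked by rank in the same way, reached similar or higher values. The member nearest Hes1, a Notch target that keeps progenitors dividing, lay 79993 bp from that gene's TSS and had 73.0 in replicate 1 and 100 in replicate 2. The promoter member at Nfix, a factor of late progenitors and glia, had 76 and 77.0. The member nearest Gucy2e, which encodes a guanylate cyclase of photoreceptors, had 66.0 and 107. In introns, the member of Mef2d had 58.0 and 80 with the word, and the member of Prdm1, a regulator of photoreceptor fate, had 44 and 72.0. The Gap43 promoter, of a growth cone protein gene active in ganglion cell axons, had 45.0 and 87.0.

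Several of the genes nearest to the most members stood in regions where letters recur. 2410141K09Rik on chromosome 13 had 8 members of 10 shared peaks at 4 separate loci, with a median of 61.7% of 36-base words found once. Tmem267 on chromosome 13 had 7 of 9 (48.7%), 2010315B03Rik on chromosome 9 had 7 of 12 (47.0%) and Zfp991 on chromosome 4 had 6 of 29 (60.0%). Rdm1 on chromosome 11 had 7 of 19 and Rbbp6 on chromosome 7 had 6 of 16, with 93% and 99.1% of words found once, and 3 of the Rbbp6 members held the word. None of the members of the first 4 genes held it.

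Hotspots, the broader regions of cutting called in each library, were narrower around members in both libraries, and fewer members lay in a hotspot at the ceiling of its score. The −log10 of the false discovery rate of the replicate 1 hotspot had a median of 3.77 for members and 6.0 for the other shared peaks, and 31.3% (29.9 to 32.7%) of members against 49.3% (49 to 49.6%) of the other shared peaks lay in a hotspot at the ceiling of 100. In replicate 2 both medians stood at that ceiling, with 57% (55.5 to 58.5%) of repeat peaks and 71.9% (71.6 to 72.1%) of the other shared peaks at it. Median hotspot width was 201 bp against 352 bp in replicate 1 and 259 bp against 570 bp in replicate 2. Across the 19 autosomes the share of repeat peaks among shared peaks had a median of 3.43% and lay between 2.41% on chromosome 18 and 4.64% on chromosomes 5 and 7.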

How the data were processed

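DNase-seq peaks and hotspots were deposited on mm10, called in each of 2 libraries alone, per the deposited file lists; the sources used here name no aligner, caller, version or filter. Column 7 of the deposited peak lists is a score whose meaning is not stated. The deposited hotspot lists give a −log10 false discovery rate per region. Duplicate lines (34 and 56) were removed. Peaks were shared at an overlap of at least 1 bp. Lower case was read from RefSeq's copy of GRCm38, the assembly of mm10, in which 33.5% of autosomal bases are lower case; no source used here names the masking program. Genes were from GENCODE M21. Windows of 150 bp tiled the autosomes, and every 50th was annotated (88932 with more than 50% lower case, 230516 others). Motifs were matched as consensus letters on both strands, and members were aligned with blastn 2.17.0. Scripts ran under Python 3.11.15 with numpy and pandas and were tested on simulated data. No test between conditions was possible. The members, lists, motifs and named regions were chosen with earlier results of these data known. Named regions were the 10 best-ranked members, 5 each at coding promoters and beyond 10 kb, up to 2 per list, the genes nearest to the most members and 1 per similarity group. The 10-base word was chosen after the members' sequences were seen. Alternatives were other limits of lower case and overlap, each library alone, replicate 2 coordinates, higher column 7 values, other promoter windows and longer words. Some regions near named genes are not reported here.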

Additional observations from a re-analysis of the deposited data

How the results depend on the processing

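All 103 values recomputed under the alternatives are descriptions. Of these, 85 moved by more than 1 SD, for counts by more than 1.5 times, and for the overlap between libraries out of its 95% interval. That SD is small. It was taken between the shared peaks on replicate 1 and on replicate 2 coordinates, and is not a spread between independent libraries. With more than 75% lower case the rule took 1608 peaks (1.36% of shared peaks) and with all bases lower case 289 (0.245%), and with peaks above the median of column 7 it took 1663 (2.28%). The share of repeat peaks was 3.84% with an overlap of at least 75 bp, 3.78% on replicate 2 coordinates, 3.24% without peaks in decimal form, 3.59% with 1 peak per locus and 3.39% without tandem repeats. Under those alternatives, in the order 75% lower case, all lower case, overlap of 75 bp, above the median, replicate 2 coordinates, no decimal form and no tandem repeats, the promoter share was 17.1, 17.3, 16.8, 21.9, 17.4, 15.4 and 16.9%. It was 9.78% with a promoter window of 500 bp, 27.4% with 2000 bp and 13.5% for protein-coding genes. The median distance to a TSS was 5485, 5834, 4767, 5813 and 6056 bp with 75% lower case, all lower case, above the median, replicate 2 coordinates and no decimal form, and 9893 bp to protein-coding genes. Its order against the other shared peaks turned with 75% lower case (5485 against 5655 bp) and without replicate 1 (6654 against 7542 bp). The median rank was 37.8 with all lower case, 66.8 above the median and 51.4 on replicate 2 coordinates. The share with all 36-base words found once was 29.3, 7.27, 56.5, 49.6, 59.6, 54.3 and 55.9% with 75% lower case, all lower case, above the median, replicate 2 coordinates, no decimal form, 1 peak per locus and no tandem repeats, and 77.7% for 50-base words. In the order 75% lower case, all lower case, overlap of 75 bp, above the median, replicate 2 coordinates, no decimal form, 1 peak per locus and no tandem repeats, the CTCF share was 4.42, 3.81, 5.37, 6.86, 4.93, 5.72, 5.12 and 5.02%, the B box share 27.1, 38.4, 17.8, 16.4, 17.7, 17.1, 17.3 and 18.7%, and the share with the 10-base word 41.7, 41.5, 37.2, 36.9, 34.4, 39.6, 35.1 and 36.7%. The share of replicate 1 repeat peaks overlapped by replicate 2 was 54.9% with 75% lower case, 51.8% with all lower case, 52.2% with an overlap of 75 bp and 60.0% without decimal form, and 42.4% in the other direction.

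Taking all peaks of 1 library, without the other, gave 7516 to 10298 repeat peaks, a share of 4.67 to 4.82%, a promoter share of 16% in each case, a median distance of 6654 to 6734 bp, a median rank of 29.1 to 29.3, 47.5 to 48.3% with all words found once, 3.06 to 3.29% with CTCF, 16.8 to 17.5% with the B box and 23.7 to 25.5% with the word. For these results the cause was not tested where the rule itself does not set it, as the tighter limits do by taking fewer peaks. Promoter share, rank and uniqueness stayed lower and the word's share higher in repeat peaks than in the other shared peaks under each alternative. With 1 mismatch allowed the CTCF share was higher in repeat peaks, 45.1% against 16.7%. Under each other alternative the CTCF share was lower in repeat peaks but often close. It went from 3.29% against 3.37% without replicate 1 to 3.81% against 5.57% with all bases lower case. The mask, the unknown depth and read length, and 2 libraries of 1 group limit these values. No paired analysis was possible because there is 1 group. The alternatives on decimal form, loci, tandem repeats and the mismatch were chosen after seeing the data.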

Other observations

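Sex chromosomes were outside the rule. On chromosome X, 148 of 2844 shared peaks had more than 50% lower-case bases, 5.20% (4.42 to 6.09%), where 46.8% of all bases are lower case. On chromosome Y it was 24 of 65, 36.9% (25.3 to 49.8%), where 96.3% of bases are lower case. RefSeq lists 1006 autosomal enhancer entries, and 17 repeat peaks, 0.392% (0.229 to 0.627%), overlapped one, against 751 of the other shared peaks, 0.662% (0.615 to 0.711%), and 0.0202% (0.0120 to 0.0320%) of repeat windows. Genes of factors that silence retroelements were nearest to 9 repeat peaks of 126 shared peaks, 7.14% (3.32 to 13.1%), an interval that includes the 3.68% of all shared peaks, among them a promoter peak of Fam208a with column 7 values of 76 in replicate 1 and 107 in replicate 2. Ribosomal protein genes had 19 of 429, 4.43% (2.69 to 6.83%), which is also not separable from that 3.68%, and 10 of these 19 held the 10-base word, which 34.1% of all repeat peaks held.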
